A study of Mus musculus with 26 samples.

Results

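The genes described here are the nuclear genes of respiratory complex I, NADH:ubiquinone oxidoreductase, in the mouse left ventricle. They were chosen by a rule on the name: every row of the count table whose symbol starts with Nduf, with pseudogene names ending in -ps left out. The rule, set with earlier results of these data known, gave 45 of the 15249 genes in the table. By role they are 7 core subunits (such as Ndufv1, Ndufv2 and Ndufs1), 9 accessory subunits of the matrix arm, 19 accessory subunits of the membrane arm, the acyl carrier protein Ndufab1, Ndufa4 with its paralog Ndufa4l2, and 7 assembly factors (Ndufaf1 to Ndufaf7). Ndufaf8 stands in the table under its clone name 1810043H04Rik, and its values are given apart.

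Complex I takes electrons from NADH in the mitochondrial matrix, passes them along a chain of iron-sulfur clusters to ubiquinone, and pumps protons across the inner membrane. The core subunits of the matrix arm carry the flavin and the clusters, the core subunits of the membrane arm are encoded by the mitochondrial genome, and accessory subunits surround both. Assembly factors build the modules and leave before the finished enzyme works. The heart is among the tissues richest in mitochondria, and deficiency of complex I is a known cause of inherited cardiomyopathy.

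The study crossed overexpression of Mst-1, a kinase of the Hippo pathway encoded by Stk4, with knockout of galectin-3, a carbohydrate-binding lectin encoded by Lgals3, in C57BL6 mice. There were 6 wild-type libraries (wt), 7 libraries of Mst-1 overexpressing mice (MstTg), 8 of galectin-3 knockout mice (Gal3Ko) and 5 of mice with both alterations (Mst1Gal3). All were made from total RNA of the left ventricle after removal of ribosomal RNA. The labels give neither the age nor the sex of the mice nor the promoter of the transgene, and they do not say that replicates were separate animals. The tests therefore speak only of the spread among these libraries, which may be technical.

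Library totals ran from 18580405 to 32663735 counts, and the lowest count of any complex I gene in any library was 81. Stk4 stood at 22.4 to 26.1 CPM (counts scaled to the library total with TMM factors) in wt and 21 to 25.9 in Gal3Ko, and at 846 to 1066 in MstTg and 839.6 to 1168 in Mst1Gal3. Lgals3 was at 50.9 to 60.0 CPM in MstTg and 2.54 to 5.43 in Mst1Gal3. It was as scarce in wt (0.878 to 2.42 CPM) as in Gal3Ko (1.47 to 2.74 CPM), so its level does not tell these 2 groups apart, and the galectin-3 genotype of Gal3Ko rests on the label. No pair of libraries agreed within counting noise.

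In wt ventricle the complex I genes were expressed over a wide range. Levels are compared between genes as CPM per kilobase of exon. Among the highest, Ndufb9, an accessory subunit of the LYR family, stood at 278 ± 15.8 CPM per kb (SD, n = 6) and Ndufa4 at 242 ± 22.1 CPM per kb. The lowest were the assembly factor Ndufaf2 (1.70 ± 0.138), the membrane-arm subunit Ndufb2 (5.04 ± 0.34) and the assembly factor Ndufaf7 (5.24 ± 0.391). Ndufb2 and Ndufaf7 overlap within 1 SD. The gene spans of Ndufb2 and Ndufb9 are partly shared with other genes on their own strand, as given below, so their levels are uncertain. The median was 96.8 CPM per kb for the core subunits, 97.2 for the membrane-arm and 57.0 for the matrix-arm accessory subunits, and 7.71 for the assembly factors. The exon length is that of all annotated exons together, so a gene with long unused exons, such as Ndufb2 (5628 bases) or Ndufab1 (6883 bases), reads low on this scale. Replicates were close: the coefficient of variation over the 6 wt libraries had a median of 7.06% over the 45 genes.

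**Figure D1:**
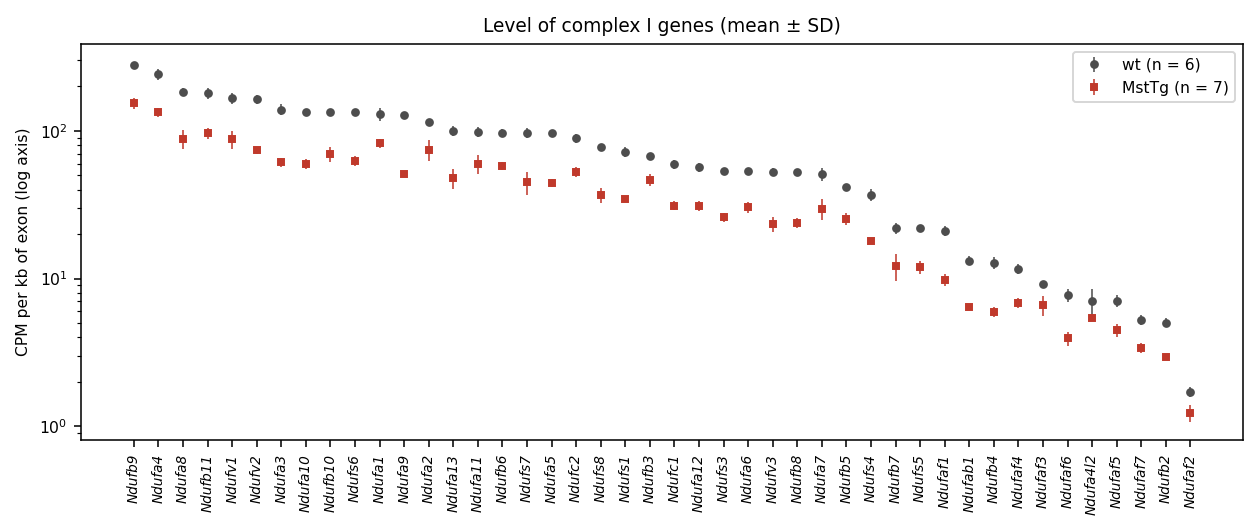
Mean level of complex I genes in wt (circles) and MstTg (squares), in CPM per kb of exon on a log axis, ordered by the wt mean; bars are the SD over libraries. Every gene drawn is lower in MstTg, while the order from Ndufb9 to Ndufaf2 is largely kept.

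With Mst-1 overexpression the whole set fell. All 45 genes were lower in MstTg than in wt at an adjusted p under 0.05 (edgeR quasi-likelihood test, two-sided, Benjamini-Hochberg over all 15249 genes), where 26.8% of all genes were lower. The median log2 fold change was -0.92, against 0.02 over all genes, and single genes ran from -1.32 to -0.39. Of the 45, 19 were at least 2-fold lower, against 4.98% of all genes. The libraries of the 2 groups did not overlap in 43 of the 45 genes, with MstTg lower, against 16.2% of all genes; Ndufa4l2 and Ndufaf2 are the exceptions. Summed over the 36 subunits without Ndufa4 and Ndufa4l2, the level was 5849 to 6690 CPM in wt and 2695 to 3390 CPM in MstTg. In bulk tissue, fewer cells of a type and less RNA per cell cannot be told apart.

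**Figure D2:**
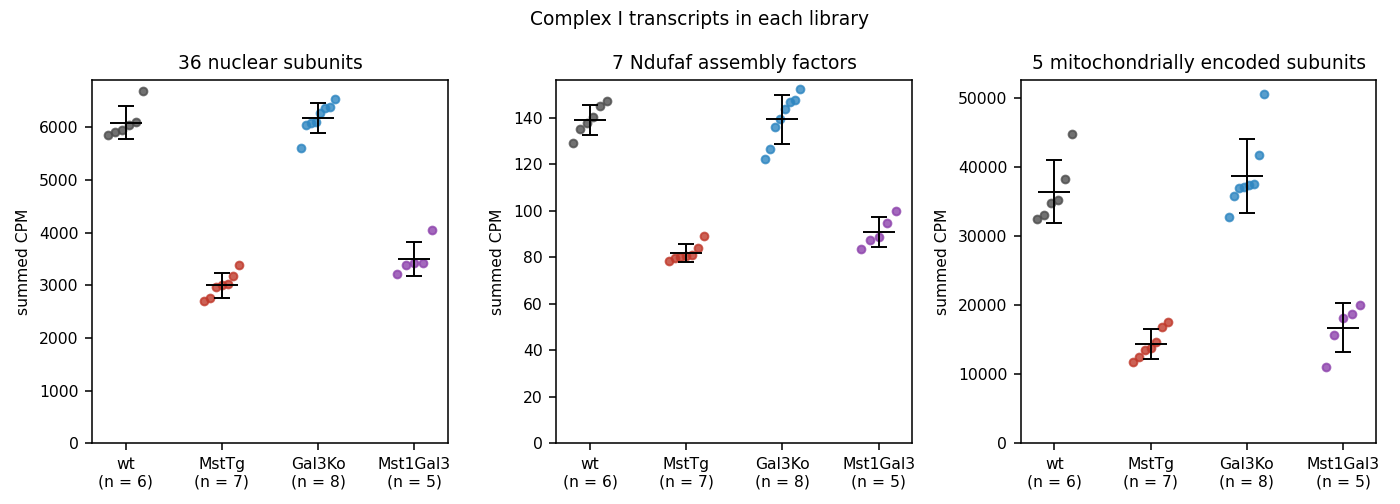
Summed CPM in each library (points) of the 36 nuclear subunits, the 7 Ndufaf assembly factors and the 5 measured subunits of the mitochondrial genome; lines are the mean and bars the SD over libraries. In each panel MstTg and Mst1Gal3 lie below wt and Gal3Ko with no overlap.

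The core subunits fell as a block, with a median of -1.07. Ndufv2 (chr17:66078638-66101559, minus strand, GRCm38), which carries a cluster next to the flavin site, had 316 CPM in the lowest, 353 in the median and 380.5 in the highest wt library, and 151, 155 and 172 in MstTg. Every MstTg library thus held less than the lowest wt library by a wide margin, and the log2 fold change was -1.15 ± 0.06 SE (edgeR adjusted p = 5.04e-17). Ndufs1, the largest subunit and a carrier of several clusters, fell from 524, 586 and 641 CPM to 258, 281 and 290.1. Its groups did not come close to touching either. Ndufv1, which binds NADH and the flavin, fell least of the 7 (-0.92 ± 0.08), with 182, 230.3 and 286 CPM in MstTg against 399, 428 and 508 in wt. Ndufs7 and Ndufs8, which hold the last clusters before ubiquinone, changed by -1.11 ± 0.09 and -1.07 ± 0.07, and Ndufs3, a scaffold of the ubiquinone module, by -1.05 ± 0.05.

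The accessory subunits of the matrix arm spread more widely. Ndufa9 (chr6:126821721-126849136, minus strand), which sits at the joint of the arms and binds a nicotinamide nucleotide, had the largest fall of all 45 genes. It had 255, 267 and 294 CPM in the lowest, median and highest wt library and 102, 108 and 113 in MstTg, a log2 fold change of -1.32 ± 0.05 that left 40.1% of the wt level (edgeR adjusted p = 3.77e-20). Ndufv3, at the tip of the arm beside the flavin subunits, went from 157, 167 and 185 CPM to 61.2, 73.8 and 85.8 (-1.19 ± 0.06). Ndufs4 and Ndufs6, which are needed to hold the NADH-oxidising module in place, changed by -1.03 ± 0.06 and -1.09 ± 0.06. Ndufa5 changed by -1.11 ± 0.07. The smaller falls were those of Ndufa12 (-0.87), the LYR protein Ndufa6 (-0.81), Ndufa7 (-0.78) and Ndufa2 (-0.62 ± 0.12), a thioredoxin-like subunit of the NADH module. For Ndufa2 the wt libraries ran from 62.0 to 71.3 CPM and the MstTg libraries from 34.0 to 53.4, so the groups stayed apart although MstTg was scattered.

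The accessory subunits of the membrane arm ran from -1.18 to -0.54. Ndufa3 (chr7:3617373-3620327, plus strand) had 129.9, 140.3 and 165 CPM in wt and 57.6, 62.3 and 72.0 in MstTg (-1.18 ± 0.06). Ndufa10, a subunit with a nucleoside kinase fold, had 415, 454 and 478 CPM in wt and 174, 201 and 223 in MstTg (-1.17 ± 0.06). These 2 genes and Ndufb8, Ndufb4, Ndufa8 and Ndufa13 (also known as GRIM-19) made up the 6 of 19 that were at least 2-fold lower. At the other end, Ndufb3 (chr1:58586384-58595964, plus strand), a small subunit with a single membrane helix, had 50, 51.3 and 55.1 CPM in wt and 31.4, 34.7 and 40.2 in MstTg (-0.54 ± 0.08, edgeR adjusted p = 1.04e-06). It kept 68.6% of its wt level, and its groups still did not overlap. Of the genes on the X chromosome, Ndufa1 changed by -0.65 and Ndufb11 by -0.90. The 3 subunits with the twin cysteine motifs of intermembrane-space import (Ndufa8, Ndufb7 and Ndufs5) changed by -1.07, -0.86 and -0.87.

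A further 3 members have roles outside the complex. Ndufab1 is the acyl carrier protein of mitochondrial fatty acid synthesis and also serves iron-sulfur cluster assembly. It fell from 82.3, 91.7 and 99.3 CPM in wt to 42.1, 43.2 and 46.8 in MstTg (-1.05 ± 0.06). Ndufa4, first counted to complex I and now known as a subunit of cytochrome c oxidase, fell from 297, 329 and 382 CPM to 167, 183 and 199 (-0.86 ± 0.06), within the range of the complex I subunits. Its paralog Ndufa4l2, a target of hypoxia-inducible factor, had the smallest fall of all, with 5.78, 7.79 and 10.2 CPM in wt and 5.56, 5.88 and 6.41 in MstTg. The MstTg libraries sat at the bottom of the wt range and overlapped it (-0.39 ± 0.10, edgeR adjusted p = 0.00185), and with scaling to library totals the gene no longer passed the test (adjusted p = 0.261).

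The assembly factors all fell, and with a median of -0.65 against -1.07, -1.03 and -0.87 for the core, matrix-arm and membrane-arm subunits; the difference between these classes was not tested. Ndufaf1, which acts with Acad9 and Ecsit on the membrane arm, fell most, from 28.1, 31.4 and 34.3 CPM in wt to 12.9, 14.6 and 17.2 in MstTg (-1.10 ± 0.08). Ndufaf6, needed for an early membrane-arm intermediate, fell from 8.50, 9.45 and 11.1 CPM to 4.20, 4.84 and 5.6 (-0.97 ± 0.09). Both values lie within the range of the subunits. Ndufaf4, which works with Ndufaf3 on the ubiquinone module, stood at 41.9, 44.2 and 51.5 CPM in wt and 24.2, 26.1 and 29.2 in MstTg (-0.77 ± 0.07). Ndufaf5, which hydroxylates an arginine of Ndufs7, stood at 11.3, 12.6 and 13.9 CPM against 6.57, 8.18 and 8.93 (-0.65 ± 0.09). Ndufaf7, an arginine methyltransferase, stood at 16.5, 18.2 and 19.9 CPM against 10.5, 12.2 and 12.8 (-0.62 ± 0.07). In all 3 the groups were apart. Ndufaf3 fell less than its partner, from 15.4, 16.7 and 17.5 CPM to 9.08, 12 and 14.9 (-0.47 ± 0.08). Ndufaf2, a relative of Ndufa12 that holds its place during assembly, stood at 4.52, 5.04 and 5.64 CPM in wt and 3.17, 3.59 and 4.67 in MstTg (-0.46 ± 0.11). The highest MstTg library of Ndufaf2 reached into the wt range, and with library totals the adjusted p of Ndufaf2 was 0.0675. Ndufaf8 (1810043H04Rik) had 8.29, 8.41 and 10.1 CPM in wt and 5.87, 7.57 and 8.12 in MstTg (-0.27 ± 0.11, edgeR adjusted p = 0.0343).

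**Figure D3:**
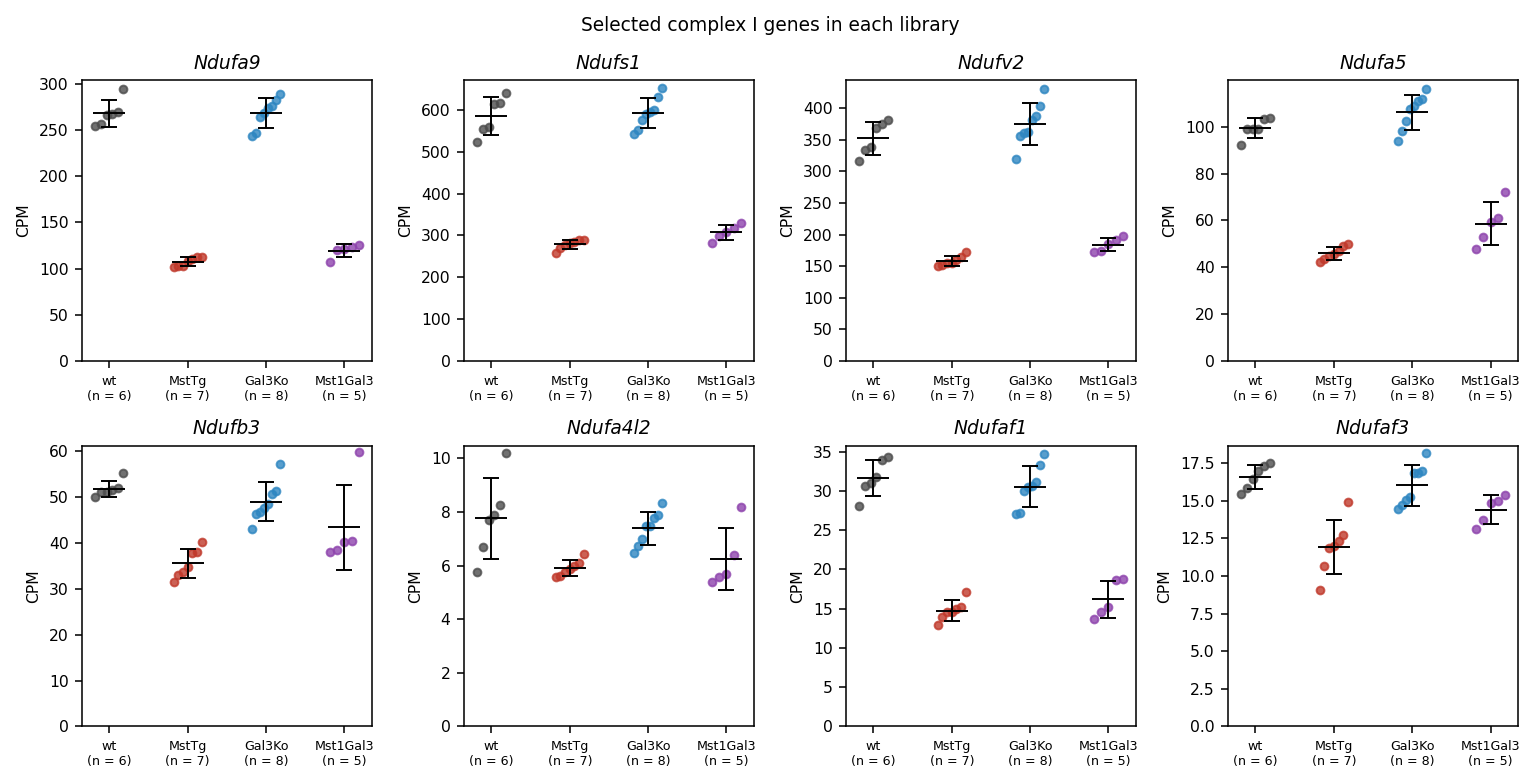
CPM in each library (points) of 8 complex I genes in the 4 groups, with the mean (line) and SD (bars); each axis starts at 0. Ndufa9, the largest fall, separates the groups widely, Ndufa4l2 overlaps, and Mst1Gal3 replicate 4 is the high point of Ndufb3 at 59.7 CPM.

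The order of the genes was largely kept while all of them fell. Across the 45 genes, the log2 level per kb in wt and in MstTg had a Pearson r of 0.993, as a description across genes that share these libraries. The wt levels spanned 169-fold, a far wider range than that of the changes, so an r near 1 carries little information. The change with Mst-1 had a Spearman rho of -0.395 with the level per kb in Gal3Ko, a group outside that comparison, so the more abundant genes had somewhat larger falls; gene length had a weaker relation (rho -0.185).

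Other genes of the respiratory chain fell alongside. Of 13 other complex I assembly factors measured, 11 were lower (median -0.68), among them Foxred1 (-1.16 ± 0.05), Tmem70 (-1.04 ± 0.06) and the import-linked flavoprotein Aifm1 (-0.77 ± 0.05). The 5 measured complex I subunits of the mitochondrial genome fell by 1.22 (mt-Nd4) to 1.61 (mt-Nd6) on the log2 scale. The nuclear genes fell in all 4 of complex II (median -1.09), 9 of 9 of complex III (-0.94), 10 of 10 of complex IV (-1.03) and 15 of 15 of ATP synthase (-0.89). The 7 other genes of electron supply to ubiquinone fell too, led by Etfdh, the electron-transfer flavoprotein dehydrogenase (-1.68 ± 0.06). Of 14 genes of iron-sulfur cluster supply 12 fell (median -0.62). Among 12 regulators of respiratory genes 8 fell, with Ppara at -1.19 ± 0.08 and the coactivator Ppargc1a at -1.07 ± 0.08, while Nrf1 (0.11 ± 0.07, edgeR adjusted p = 0.186) and Yy1 (-0.02 ± 0.05, adjusted p = 0.771) did not pass the test.

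The make-up of the tissue moved as well. All 10 fibroblast markers rose, with a summed level of 3959 to 5048 CPM in MstTg and 1579 to 2240 in wt. Of 12 cardiomyocyte markers 2 rose and 7 fell, and their sum overlapped, at 103500 to 128800 CPM in wt and 114300 to 137100 in MstTg. Of 10 endothelial markers 9 fell, with a sum of 1027 to 1262 CPM in wt and 789.6 to 923.4 in MstTg. Among the 9 markers of smooth muscle and pericytes, 3 were lower and 2 higher by the test, and their sum was lower without overlap, at 1179 to 1480 CPM in wt and 834.6 to 990.7 in MstTg. Of 10 macrophage markers 1 rose and 1 fell, and their sum overlapped, at 221 to 419 CPM in wt and 273 to 339.7 in MstTg. Of 5 measured atrial markers 1 rose and 1 fell; their sum was 7.44 to 46.3 CPM in wt, with a median of 9.98, and 40.9 to 75.8 in MstTg, with a median of 50.7. The sum of 5 red blood cell genes overlapped, at 34.0 to 334.6 CPM in wt and 17.7 to 184 in MstTg. Mitochondrially encoded transcripts took 29.2 to 35.5% of counts in wt and 14.4 to 23.4% in MstTg. Expressed relative to the cardiomyocyte markers, all 45 complex I genes remained lower; the part of the other shifts in the size of the fall was not tested.

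Promoter windows were read from the RefSeq table for GRCm38.p6, from 250 bases before to 50 after the start of the entry used for each gene. Other starts of a gene were not searched. A usable window was kept for 39 of the 45 genes. Some entries were left out before matching, so this is not the number of these genes that the RefSeq table held. The windows are shown because these genes fell together, and short motifs of factors known to act on respiratory genes were searched on both strands. AAGATGGC, the core of the YY1 motif, was in 7 of the 39 windows (17.9%, against 4.5% of all 10500 genes with a window). In all 7 it lay on the gene's own strand, 23 to 39 bases after the start, and its ATG was the annotated start codon of the gene in 7 of 7. In these 30-base stretches the capitals mark the motif.
Ndufa3 (chr7:3617377-3617406, plus strand): cttgtcgccgccaagaacAAGATGGCcggg
Ndufa9 (chr6:126849104-126849133, minus strand): cgtgaggcattgtgggagAAGATGGCggcc
Ndufb8 (chr19:44555393-44555422, minus strand): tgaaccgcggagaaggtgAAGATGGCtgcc
Ndufc1 (chr3:51408922-51408951, minus strand): aggcggagcctgcggaacAAGATGGCgccg
Ndufs4 (chr13:114388048-114388077, minus strand): ctggcgtttgcctacaggAAGATGGCggcg
Ndufs6 (chr13:73328438-73328467, minus strand): gggtcaagggtcaccggcAAGATGGCggcg
Ndufs7 (chr10:80249455-80249484, plus strand): tgtctgaaggccgaggccAAGATGGCggcg
The 7 genes changed by -1.32 to -0.93 with Mst-1 (median -1.11), and the 32 other genes with a window had a median of -0.86. This is a description with no test, and a match of letters is not a bound site.

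The NRF1 motif, searched as GCGC and TGCGC with any base between them, was in 9 of the 39 windows (23.1%, against 10% of all genes). The capitals mark it in 4 of them, shown as examples; Ndufs6 holds both motifs.
Ndufa11 (chr17:56717692-56717721, plus strand): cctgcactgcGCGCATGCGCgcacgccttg
Ndufa8 (chr2:36049349-36049378, minus strand): ctagagcagtGCGCTTGCGCgtcgctggag
Ndufaf4 (chr4:24897960-24897989, plus strand): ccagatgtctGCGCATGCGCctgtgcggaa
Ndufs6 (chr13:73328479-73328508, minus strand): cgactgctgtGCGCCTGCGCcggcacttgg
The genes with this motif had a median change of -0.87 with Mst-1 and the 30 without it -0.93. AAGGTCA, the half-site of estrogen-related receptors, was in 3 windows (7.7%, against 3.2%), and CCGGAAG, the core of the ETS and GABPA motif, in 5 (12.8%, against 17.1%). The median change with Mst-1 was -0.87 with AAGGTCA and -0.93 without it, and -1.05 with CCGGAAG and -0.91 without it. These differences were not tested. None of these motifs shares letters with another within a printed stretch.

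Galectin-3 knockout alone left complex I genes near their wt levels. Between Gal3Ko and wt 0 of 45 genes passed the edgeR test, where 0.354% of all genes did; at an unadjusted p under 0.05 there was 1, Ndufab1 (0.12 ± 0.05, edgeR adjusted p = 0.731), against 6.66% of all genes. The median change was 0.03, with single estimates from -0.14 (Ndufs5) to 0.15 (Ndufb4). Ndufa9 had 244, 271 and 289 CPM in Gal3Ko beside 255, 267 and 294 in wt. The 95% interval of a single gene's log2 fold change, without adjustment for many tests, had a median half-width of 0.14. This is not the detection limit of the adjusted test, which is stricter. Ndufb4, at 0.15, had an edgeR unadjusted p of 0.0991 and an adjusted p of 0.842. Differences of this size could therefore have been missed, and the absence of calls does not exclude them. By DESeq2 and limma-voom the number of complex I genes was also 0.

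Mst-1 overexpression on the knockout background lowered the same genes. Between Mst1Gal3 and Gal3Ko 42 of the 45 were lower by the edgeR test, where 25.6% of all genes were; the median log2 fold change was -0.74, and 4 genes were at least 2-fold lower, against 3.82% of all genes. The groups were apart in 39 genes, against 14.5%. Ndufa9 again fell most, from 244, 271 and 289 CPM in Gal3Ko to 120.4, 123, 107, 122 and 126 CPM in the 5 Mst1Gal3 libraries (-1.17 ± 0.05). Ndufv2 and Ndufa3 changed by -1.03 ± 0.06 and -1.06 ± 0.06. The 3 that did not pass were Ndufb3 (-0.17 ± 0.08, adjusted p = 0.0806), Ndufaf3 (-0.16 ± 0.08, adjusted p = 0.103) and Ndufa4l2 (-0.25 ± 0.11, adjusted p = 0.0528). Ndufb3 had 38.0, 38.3, 40.2, 59.7 and 40.4 CPM in the Mst1Gal3 libraries against 42.9, 48.1 and 57.2 in Gal3Ko, so 4 libraries lay below Gal3Ko and replicate 4 above it. Without replicate 4, Ndufb3 (-0.32, adjusted p = 0.000154) and Ndufa4l2 (-0.36, adjusted p = 0.0046) passed and Ndufaf3 (-0.18, adjusted p = 0.0835) did not. This comparison and that of MstTg with wt share no library, and across the 45 genes their log2 fold changes had a Pearson r of 0.945, as a description.

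**Figure D4:**
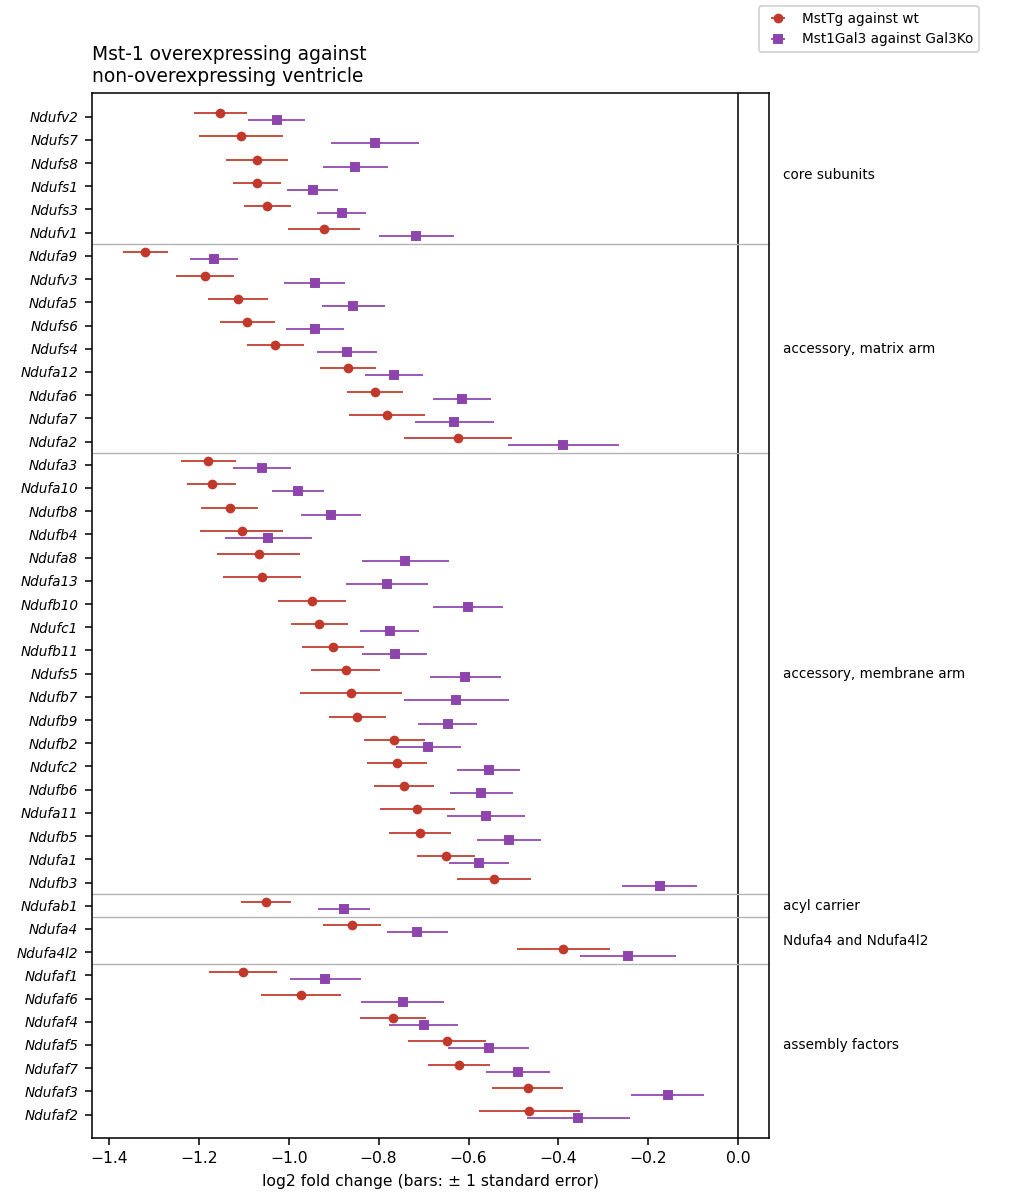
Log2 fold change of complex I genes, grouped by role, in MstTg against wt (circles) and Mst1Gal3 against Gal3Ko (squares), with 1 standard error. All points lie left of 0 in both; Ndufa9 lies farthest left, and Ndufb3, Ndufaf3 and Ndufa4l2 lie nearest to 0 in Mst1Gal3 against Gal3Ko.

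With Mst-1 overexpressed, complex I genes were somewhat higher where galectin-3 was knocked out. All 45 estimates of Mst1Gal3 against MstTg were above 0, with a median of 0.21 against 0.02 over all genes, and 16 of 45 were higher by the edgeR test, where 2.54% of all genes were. By role these were 4 of 7 core subunits, 3 of 9 matrix-arm and 8 of 19 membrane-arm accessory subunits, Ndufab1, and 0 of 7 assembly factors, whose median was 0.14; 34 of 45 had an unadjusted p under 0.05, against 18.3% of all genes. The largest was Ndufa5, a matrix-arm subunit next to the ubiquinone module, with 47.9, 53.1, 59.4, 72.1 and 60.9 CPM in Mst1Gal3 against 42.2, 45.6 and 49.9 in MstTg (0.35 ± 0.07, edgeR adjusted p = 0.0022). Its lowest Mst1Gal3 library lay within MstTg and the other 4 above it. The groups were apart in 3 genes, against 1.31% of all genes: Ndufab1, Ndufc2 and Ndufv2. Ndufab1 had 53.2, 52.9, 51.0, 56.9 and 55.0 CPM against 42.1, 43.2 and 46.8 (0.29 ± 0.06, adjusted p = 0.0023). For Ndufc2 the values were 44.4, 44.6, 48.3, 57.3 and 50.1 CPM against 35.3, 39.6 and 44.3 (0.30 ± 0.07, adjusted p = 0.0103). All 5 libraries of both genes thus lay above MstTg, by a narrow gap in Ndufc2. The Ndufv2 values were 172, 184, 174, 191 and 197 CPM against 151, 155 and 172 (0.22 ± 0.06, adjusted p = 0.037), where the lowest Mst1Gal3 library stood just above the highest MstTg library.

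The other 12 higher genes overlapped between groups. Of the core subunits, Ndufs3 had 68.2, 68.2, 59.8, 65.6 and 62.4 CPM in Mst1Gal3 against 52.5, 54.7 and 64.3 in MstTg, and Ndufs8 had 53.2, 55.0, 49.7, 66.5 and 57.9 against 38.8, 48.2 and 55.8. In both genes the lowest Mst1Gal3 library was replicate 3, which lay inside the MstTg range each time. So did replicate 5 for Ndufs3, and replicates 1 and 2 for Ndufs8. Of the matrix arm, Ndufv3 ran from 83.5 to 102 CPM against 61.2 to 85.8, and Ndufa6 from 60.3 to 70.7 against 47.6 to 60.5, so each overlapped at its edge only. Of the membrane arm, Ndufb8 ran from 80.2 to 109 CPM against 68.1 to 86.2, Ndufb9 from 170.4 to 226 against 145 to 181, and Ndufb11 from 93.8 to 119.6 against 74.5 to 97.7. Ndufb5 ran from 124 to 187 CPM against 114 to 144. In Ndufa13 and Ndufb10 a single library stood off: Ndufa13 had 72.6, 68.3, 70.7, 97.6 and 72.5 CPM against 43.7 to 72.8, and Ndufb10 94.8, 99.1, 94.0, 132 and 92.0 against 68.9 to 100.02. The same held for Ndufb3, at 38.0 to 40.4 CPM and 59.7 in replicate 4, against 31.4 to 40.2. The 12 estimates ran from 0.20 (Ndufs3) to 0.35 (Ndufa13), with adjusted p from 0.0193 (Ndufa6) to 0.0494 (Ndufb11).

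Mst1Gal3 replicate 4 was the highest library of its group in 34 of the 45 genes. It was also the highest for the sums of complex II (1095 CPM), III (2005), IV (2185) and ATP synthase (5884). For the mitochondrially encoded complex I subunits it was the lowest, at 11115 CPM where the others had 15771 to 20104. Without replicate 4, 2 of the 16 calls were left, Ndufa5 (0.27, adjusted p = 0.0154) and Ndufab1 (0.27, adjusted p = 0.0104). The median was then 0.15, and 44 of 45 estimates were above 0. Without MstTg replicate 5, the highest of MstTg in 28 genes, the number was 24. That fit also called the most of all genes in either direction, 1040, against as few as 469 without Mst1Gal3 replicate 1. Leaving out MstTg replicate 1, 2, 4, 6 or 7 gave 8 to 10 complex I genes. Shorter genes were higher in Mst1Gal3 throughout the table: the median over other genes was 0.12 for exons of up to 800 bases and -0.01 beyond 6000, while for the complex I genes it was 0.23 (5 genes) and 0.22 (2 genes); with an offset for this trend 9 genes were called. Of 12 cardiomyocyte markers 3 rose, and their sum was 124600 to 147200 CPM in Mst1Gal3. Relative to these markers 0 of 45 complex I genes passed (2 at an unadjusted p under 0.05), the median was 0.07, and 37 estimates were above 0. The fibroblast marker sum overlapped, at 3995 to 4565 CPM in Mst1Gal3. Of other respiratory genes, 3 of 4 of complex II, 4 of 9 of complex III, 3 of 10 of complex IV, 1 of 15 of ATP synthase and 1 of 5 mitochondrially encoded complex I subunits were higher. The last was mt-Nd6 (0.76 ± 0.14, edgeR adjusted p = 0.0018), which lies opposite mt-Nd5, and whether counting used strand is not given in the sources used here.

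**Figure D5:**
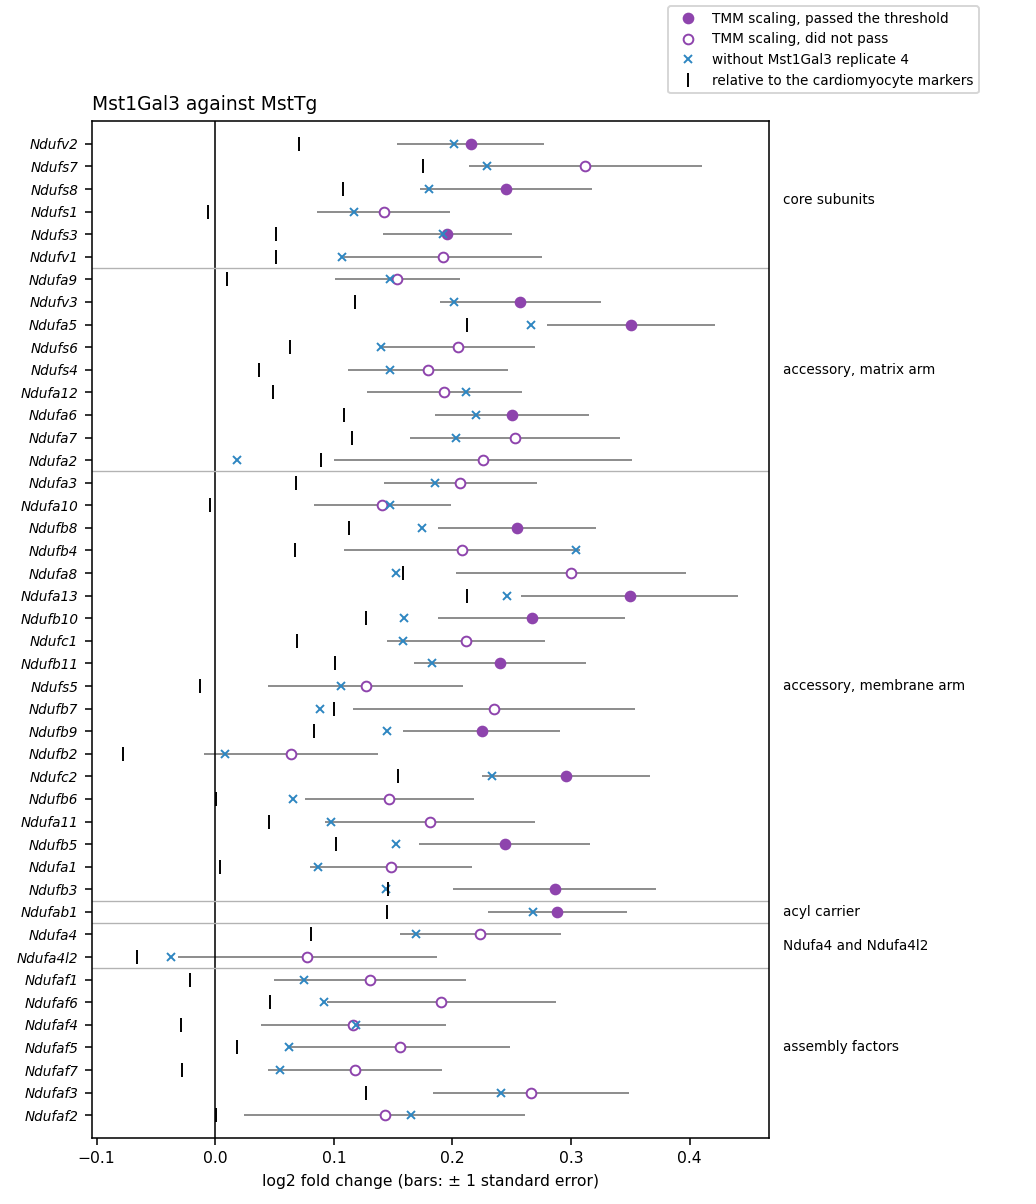
Log2 fold change of Mst1Gal3 against MstTg for complex I genes, grouped by role: circles with 1 standard error (filled where the adjusted p was under 0.05), crosses without Mst1Gal3 replicate 4, and bars relative to the cardiomyocyte markers. The filled circles lie between 0.20 and 0.35, and most bars lie right of 0.

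The direct test of whether the knockout acted differently with and without Mst-1 called no complex I gene. In this interaction 0 of 45 passed the edgeR test, where 0.656% of all genes did, and 19 had an unadjusted p under 0.05, against 12.2%; DESeq2 and limma-voom also called 0. All 45 estimates were above 0, with a median of 0.17 against 0.01 over all genes. The lowest adjusted p was that of Ndufb10 (0.35 ± 0.11, adjusted p = 0.147), and the largest estimate that of Ndufb3 (0.37 ± 0.12, adjusted p = 0.156). The higher level in Mst1Gal3 than in MstTg is thus not shown to depend on Mst-1 for any of these genes.

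Some counts may hold reads of neighbours. Overlaps are given here between whole gene spans, introns included, and the shared exon sequence was not measured. Of the genes, 15 overlap another gene of the table, 14 of them on the opposite strand: Ndufs1 shares 14695 bases with Ino80dos and Ndufaf2 4727 with Smim15. Ndufa13 shares 8379 bases with Yjefn3 on its own strand. Protein-coding genes absent from the table also overlap on the same strand: Gm42420 with Ndufb2 (4022 bases), Gm20538 with Ndufb8 (4260) and Gm49356 with Ndufb9 (3604). Ndufab1, Ndufa11, Ndufb4 and Ndufs6 have processed pseudogenes named after them in the annotation, and processed pseudogenes overlap Ndufc2 (188 bases, same strand) and Ndufv2 (238 bases, opposite strand). Reads of all these genes could be split or shared to an unknown extent, so their levels are uncertain.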

How the data were processed

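RNA sequencing counts were analysed for 26 left ventricle libraries in 4 groups. The values are unnormalised counts of reads for each gene, deposited in 1 table and made by the authors with STAR and featureCounts on GRCm38 after demultiplexing with bcl2fastq 2.19.1.403, per the submitters' processing notes; of the strand setting, the handling of reads with several matches and the annotation nothing is stated (not given in the sources used here). The table's lowest mean count was 10, so genes below that were not analysed here.

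Counts were fitted with edgeR 4.0.16 in R 4.3.3: TMM factors, filterByExpr (0 genes removed, so all 45 complex I genes entered), robust glmQLFit with a mean per group over all 26 libraries, then two-sided glmQLFTest. P-values were adjusted by Benjamini-Hochberg over 15249 genes, and 0.05 was the threshold. Residual degrees of freedom were 22, and the common BCV (biological coefficient of variation) was 0.114. Fold changes are edgeR's log2 values. Positions and exon lengths came from GENCODE M21 (GRCm38), promoter windows from RefSeq (GRCm38.p6). The fit was tested on simulated data.

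Genes named in full were, by rule, the 3 highest and 3 lowest wt levels per kb, the 5 largest and 5 smallest falls with Mst-1, all assembly factors, Ndufa4 and Ndufa4l2, and every gene called in a galectin-3 comparison; the others named stand for their role. The values of 1 gene that enters the counts, sums and medians are not reported here. The genes and lists were chosen with earlier results of these data known. Alternatives were other scalings, filters, tools (DESeq2 1.42.0, limma-voom 3.58.1), sample sets and a replicate block; the length offset and the set without high atrial markers were added after seeing the data.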

Additional observations from a re-analysis of the deposited data

Results flagged for a closer look

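A library was singled out where its gap to the nearest other library of its group, as a share of the group's range, passed Dixon's 95% limit. This held for 19 of 176 combinations of gene and group, where chance alone gives about 1 in 20 (5%). The genes share the same libraries, and 10 of the 19 were in Mst1Gal3 replicate 4. Setting the share against 5% is therefore no test of an excess.

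Mst1Gal3 replicate 4 was set apart in 10 genes, each time on the high side. It had 97.6 CPM of Ndufa13 where the others had 68.3 to 72.6, 76.9 of Ndufa2 (40.8 to 44.9), 129.8 of Ndufa8 (79.1 to 88.9), 132 of Ndufb10 (92 to 99.1) and 59.7 of Ndufb3 (38 to 40.4). It also had 89.4 CPM of Ndufb7 (55.7 to 61.2), 109 of Ndufb8 (80.2 to 87.7), 226 of Ndufb9 (170.4 to 179.6), 61.8 of Ndufc1 (50.3 to 53.2) and 102 of Ndufv3 (83.5 to 87.1). Of these genes, Ndufa13, Ndufb10, Ndufb3, Ndufb8, Ndufb9 and Ndufv3 are among those higher in Mst1Gal3 than in MstTg, and none of the 6 passed without this library.

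The wild-type replicate 2 was high in 3 genes, with 124 CPM of Ndufa11, 189 of Ndufb11 and 125 of Ndufs3. Replicate 6 of wt had 55.1 CPM of Ndufb3 (others 50 to 51.9) and 16.9 of Ndufs5 (18.8 to 19.8). Mst1Gal3 replicate 3 was low in Ndufa9, at 107 CPM where the others had 120.4 to 126. In Gal3Ko, replicate 5 was low in Ndufaf5 (12 CPM) and replicate 3 high in Ndufs7 (202 CPM). MstTg replicate 1 had 13.3 CPM of Ndufb4 (others 10.6 to 11.5).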

How the results depend on the processing

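The 45 falls in MstTg against wt held under each alternative and each left-out library, except with library totals, where 43 did; there the median was -0.677 and the median of all genes shifted from 0.02 to 0.267, so that relative to it the fall was as large. An offset for gene length gave a median of -0.817. In Mst1Gal3 against Gal3Ko 40 to 45 genes were lower, with a median of -0.507 under library totals. In Gal3Ko against wt and in the interaction 0 genes were called under each alternative; relative to the cardiomyocyte markers the Gal3Ko median was -0.115. The count most dependent on processing was that of Mst1Gal3 against MstTg, 16. It was 9 with DESeq2 size factors, 2 with library totals, 0 relative to the cardiomyocyte markers (median 0.069), 5 with only the groups compared and 9 with the length offset, and 13 to 21 under the other filters and tools. Leaving out 1 library gave 2 (without Mst1Gal3 replicate 4) to 24 (without MstTg replicate 5). All genes called in those fits, in either direction, ran from 469 (without Mst1Gal3 replicate 1) to 1040 (without MstTg replicate 5). Libraries share only a number: correlations of same-numbered libraries over 0.1 were found in 4 of 6 pairs of Gal3Ko and wt, 1 of 6 of MstTg and wt, 2 of 5 of Mst1Gal3 and Gal3Ko and 0 of 5 of Mst1Gal3 and MstTg. With the replicate block, which leaves Gal3Ko replicate 8 without a partner, 9 genes were called in Mst1Gal3 against MstTg, and each library matched its own number best in those same counts of pairs. The causes of these shifts were not tested. Interval half-widths of about 0.14 per gene, before adjustment for many tests, limit what can be seen in Gal3Ko against wt.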
